A study of Mus musculus with 8 samples.

Results

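Described here are 10 genes known to mark stem cells of teeth or hair follicles, namely *Sox2*, *Sox9*, *Sox21*, *Lgr4*, *Lgr5*, *Lgr6*, *Bmi1*, *Lrig1*, *Cd34* and *Lhx2*. They were chosen by name, as the rows with these 10 symbols among the 23358 genes of the deposited table, and all 10 were found. The study removed Mediator 1 (*Med1*), a subunit of the complex that links enhancers to RNA polymerase II, from the dental epithelium of mice, and sequenced RNA of the cervical loop, the growing end of the mouse incisor. The CLH tissue is the head of the loop, where the epithelial stem cells of the tooth reside, and the CLT tissue is its tail, with the progenies of these cells. Tissues were from 4-week-old C57BL/6 mice, pooled over several animals, with 2 libraries in each of the 4 groups (Ctrl CLH, cKO CLH, Ctrl CLT and cKO CLT). The cKO mice carried floxed *Med1* alleles and Cre recombinase under the *Krt14* promoter. Ctrl mice were littermates without Cre. The *Krt14* promoter is active in epithelial cells, so mesenchyme, vessels and other cells in the dissected tissue keep *Med1*.

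The mouse incisor grows throughout life because epithelial stem cells in the cervical loop keep supplying cells that become enamel-forming ameloblasts and their supporting layers. Hair follicles renew from their own epithelial stem cells in the bulge and from progenitors above and below it. The markers of both systems overlap in part. SOX2 is a transcription factor known to mark incisor stem cells, LGR5 and LGR6 are receptors found on stem cells of several epithelia, and CD34, LHX2 and LRIG1 are well known from the hair follicle.

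The 2 Ctrl CLT libraries stood apart from each other. For every marker except *Lgr4*, the difference between cKO and Ctrl in CLT is therefore also given without each of these libraries. In CLT, *Lrig1*, *Lgr5*, *Lhx2*, *Cd34* and *Lgr4* were higher in each library labelled cKO than in any labelled Ctrl. *Sox2*, *Sox21*, *Lgr6* and *Bmi1* were lower in both, and *Sox9* overlapped. These are 5 of 10 markers higher and 4 of 10 lower without overlap, where 37.2% and 35.1% of all genes tested did the same. None of the 10 passed an adjusted p of 0.05 in limma within the 4 CLT libraries, where 1.75% of the genes tested passed. In CLH, none of the 10 passed either, and their estimates lay within 0.27 of 0 on the log2(RPKM + 1) scale. Between CLT and CLH in cKO all 10 passed, as did 74.0% of all genes tested, and in Ctrl none did.

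The depth was similar over the 8 libraries, from 22330512 to 28651106 reads on genes, which is 82.2% to 85.6% of each library's total. The values are RPKM, that is read numbers divided by gene length and by the depth of the library, so levels of different genes can be set side by side per length. *Med1* itself was at 7.71 and 9.12 RPKM for Ctrl CLH, 7.10 and 7.03 for cKO CLH, 4.83 and 8.71 for Ctrl CLT and 9.15 and 8.96 for cKO CLT. The CLT libraries labelled cKO thus lay above those labelled Ctrl. The table has no values per exon, so it cannot show the deleted exons alone, and every direction below is that of libraries as labelled. The 2 Ctrl CLT libraries stood apart from each other, with 34.6% of genes tested differing over 1.5-fold between them, against 0.763% to 1.12% within the other groups.

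Markers of other cell types differed between those 2 libraries as well. The 6 hair keratin and trichohyalin genes summed to 3202 RPKM for Ctrl CLT 1 and 11.27 for Ctrl CLT 2, against 9533 and 10480 for cKO CLT and 5.711 to 7.609 in CLH. Skeletal muscle genes (6 listed) summed to 649.8 and 56.35 for Ctrl CLT, 1762 and 1936 for cKO CLT and 30.58 to 35.19 in CLH. Melanocyte genes (6 listed) summed to 134.4 and 10.34 for Ctrl CLT, 414.4 and 414.5 for cKO CLT and 4.265 to 4.578 in CLH. All 6 genes of each of these lists had reads in Ctrl CLT 1 and in both cKO CLT libraries, and *Mlana* was at 0 for Ctrl CLT 2. The list of oral and cornified epithelium (7 genes) summed to 226.1 and 6.729 for Ctrl CLT, 660.7 and 671.5 for cKO CLT and 5.585 to 70.04 in CLH. Its 4 genes of cornified epithelium carried that sum in Ctrl CLT 1 and cKO CLT, with *Krt10* at 138.3 and 2.84 RPKM for Ctrl CLT and 409.3 and 419.4 for cKO CLT, while its oral keratins did not have that order. *Krt13* was at 4.448 and 0.1145 for Ctrl CLT and 0.4072 and 0.2511 for cKO CLT, *Krt4* at 1.49 and 0.1234 against 0.7358 and 0.9281, and *Krt76* at 0.9166 and 2.798 against 0.06171 and 0.04757. By the summed level of each of these lists, Ctrl CLT 1 thus held 32% to 35.1% of the mean cKO CLT level and Ctrl CLT 2 at most 3.05%. The general epithelial list, with *Krt14* and *Krt5*, was at 1791 and 945.5 for Ctrl CLT, 2684 and 3078 for cKO CLT and 750.7 to 885.8 in CLH. By contrast, the sum of the 7 ameloblast genes was lowest in cKO CLT, with 84584 and 37392 RPKM for Ctrl CLT, 12503 to 14318 in CLH and only 19.71 and 15.81 for cKO CLT. Because these were bulk tissues, fewer cells of a type and less RNA per cell cannot be told apart in any value below.

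**Figure D1:**
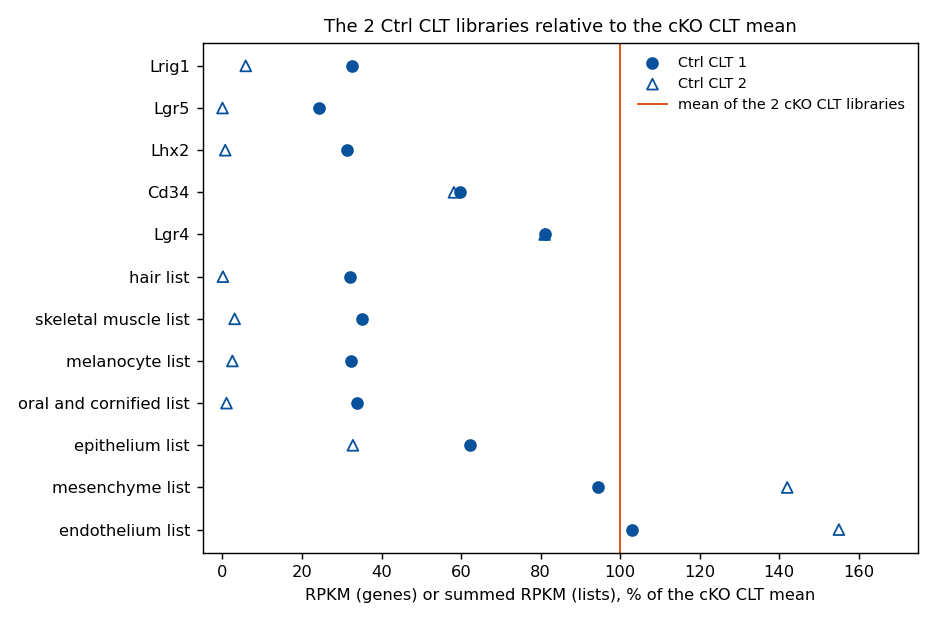
RPKM of 5 markers and summed RPKM of 7 cell type lists in the 2 Ctrl CLT libraries (filled circle, Ctrl CLT 1; open triangle, Ctrl CLT 2), as a percentage of the mean of the 2 cKO CLT libraries (vertical line). *Lrig1*, *Lgr5* and *Lhx2* lie at 24.3% to 32.5% in Ctrl CLT 1 and at 0% to 5.85% in Ctrl CLT 2, near the sums of the hair, muscle, melanocyte, and oral and cornified lists (the last carried by its cornified genes), whereas *Cd34* lies at 59.8% and 58.2% and *Lgr4* at 81.2% and 81%.

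In Ctrl CLH, *Sox9* had the highest level of the 10 markers at 28.6 RPKM ± 0.651 (SD, n = 2), followed by *Cd34* at 22.3 ± 0.294, *Bmi1* at 15.01 ± 2.12 and *Lgr4* at 11.0 ± 0.287. *Sox21*, *Lgr6* and *Lrig1* had 5.79, 5.46 and 5.43 RPKM and did not differ beyond their spread. *Sox2* was at 1.41 RPKM, and *Lgr5* and *Lhx2* were near 0 at 0.144 and 0.0725. The order in cKO CLH was the same apart from *Lgr6* and *Sox21*, which exchanged places. In cKO CLT the order was another: *Cd34* came first at 43.7 RPKM, *Lrig1* next at 40.1, then *Lgr4* and *Sox9* at 18.3 and 17.7, whose ranges overlapped. *Sox2* was the lowest there at 0.170 RPKM. All 10 markers passed the filter on low values (at least 1 RPKM in at least 2 of the 8 libraries), but *Sox2* passed through the CLH libraries only, and *Lgr5* and *Lhx2* only through the cKO CLT libraries and Ctrl CLT 1.

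**Figure D2:**
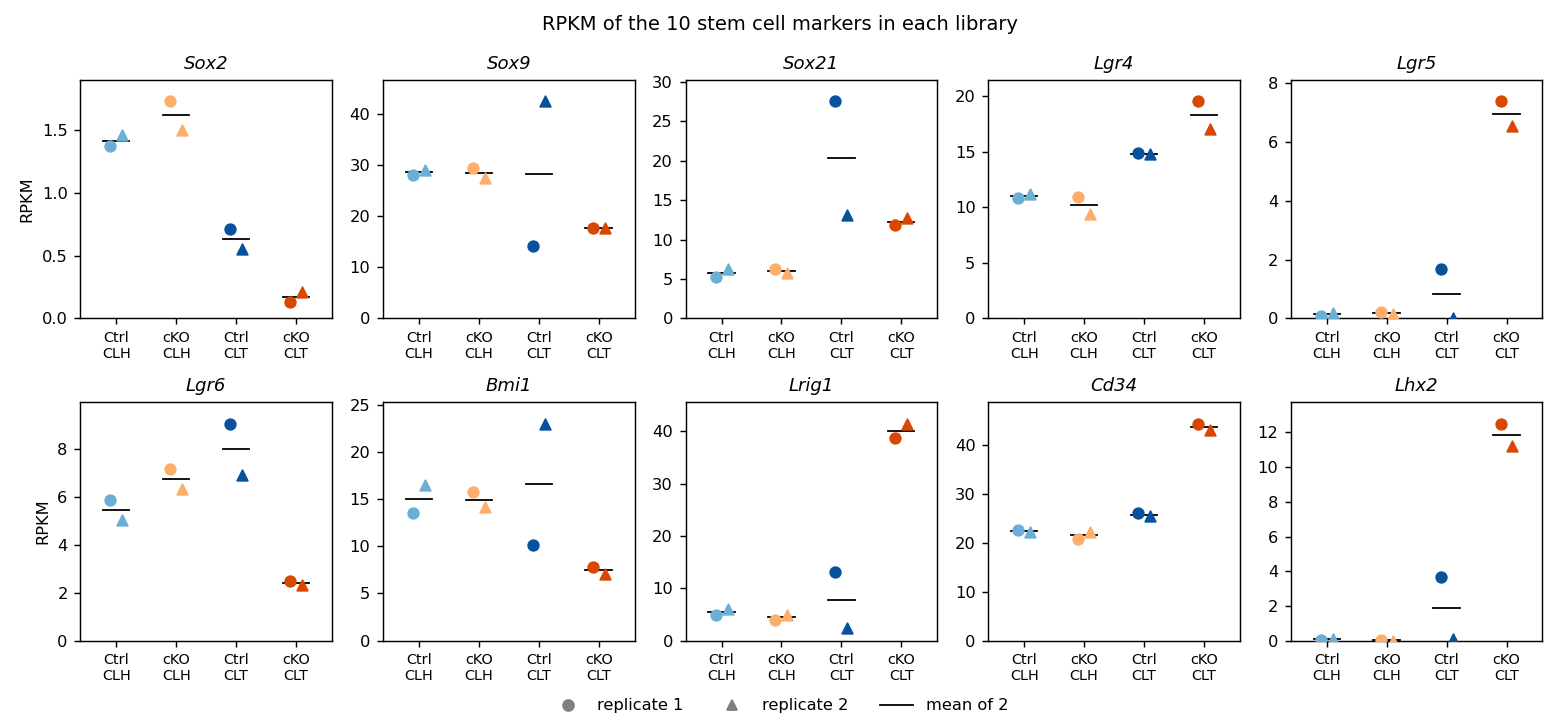
RPKM of each of the 10 markers (own vertical axis from 0) in the 8 libraries, by group. Circles are replicate 1, triangles replicate 2 and lines the mean of both; the CLH groups lie together for each marker, and the Ctrl CLT libraries lie far apart for *Sox9*, *Sox21*, *Lgr5*, *Bmi1*, *Lrig1* and *Lhx2*.

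Promoters are shown for 4 markers: *Lgr6* and *Cd34*, whose cKO effect differed between CLT and CLH in the test below, and *Lrig1* and *Lhx2*, which had the largest differences in CLT. Each is 300 bases from RefSeq on GRCm38.p6 (mm10), from 250 bases before to 50 after the start of the gene, written 5′ to 3′ on the gene's strand. Capitals mark matches to the motifs searched. The windows are chr1:135105227-135105526 on the minus strand for *Lgr6*, chr1:194938571-194938870 on the plus strand for *Cd34*, chr6:94700096-94700395 on the minus strand for *Lrig1* and chr2:38351058-38351357 on the plus strand for *Lhx2*.
*Lgr6*: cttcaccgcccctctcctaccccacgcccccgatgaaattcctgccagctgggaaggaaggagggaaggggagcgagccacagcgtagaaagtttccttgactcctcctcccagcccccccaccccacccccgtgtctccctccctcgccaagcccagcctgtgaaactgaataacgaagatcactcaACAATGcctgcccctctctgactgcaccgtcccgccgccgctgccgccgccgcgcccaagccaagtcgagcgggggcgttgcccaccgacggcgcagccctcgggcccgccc
*Cd34*: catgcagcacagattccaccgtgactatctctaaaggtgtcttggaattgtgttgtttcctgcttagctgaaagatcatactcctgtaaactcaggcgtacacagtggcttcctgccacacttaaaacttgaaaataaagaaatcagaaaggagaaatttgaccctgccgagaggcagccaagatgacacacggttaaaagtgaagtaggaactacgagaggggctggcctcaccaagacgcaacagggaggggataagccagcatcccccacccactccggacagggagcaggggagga
*Lrig1*: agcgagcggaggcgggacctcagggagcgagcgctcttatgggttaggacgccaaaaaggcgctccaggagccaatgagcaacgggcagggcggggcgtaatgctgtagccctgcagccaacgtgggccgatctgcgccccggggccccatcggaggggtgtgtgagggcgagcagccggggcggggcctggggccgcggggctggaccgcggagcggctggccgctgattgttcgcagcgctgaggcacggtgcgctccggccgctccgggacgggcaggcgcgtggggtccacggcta
*Lhx2*: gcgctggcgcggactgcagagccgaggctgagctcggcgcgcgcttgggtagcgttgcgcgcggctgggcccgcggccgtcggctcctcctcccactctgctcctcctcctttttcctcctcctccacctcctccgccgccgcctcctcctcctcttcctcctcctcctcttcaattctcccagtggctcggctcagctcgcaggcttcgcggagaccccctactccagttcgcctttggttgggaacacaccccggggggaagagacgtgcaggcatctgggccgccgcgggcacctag
Of the 10 markers, 8 had an entry, with 9 windows in all since *Lhx2* has 2 starts; *Sox9* and *Lgr5* had none. The motifs searched on both strands were CTTTGA for TCF/LEF factors, ACAATG for SOX factors, TAATTA for LIM homeodomain factors, TGANTCA for AP-1 and TATAAA for the TATA box. The SOX letters occurred in the *Lgr6* window at base -62 from the start and in the *Bmi1* window at base 35, and 12.6% of 32851 promoters hold them. The TCF/LEF letters, found in 16% of promoters, occurred in the *Sox21* window at base -114 as TCAAAG. No motif searched matched in the other windows, and no 2 of these letter strings overlapped in the 9 windows. The *Cd34* window was 50% G and C with 7 CpG, close to the median promoter (52.7% and 7 CpG). The *Lrig1* and *Lhx2* windows shown were 73% and 69.3% G and C with 35 and 29 CpG, above 94.3% and 89.5% of all promoters in G and C content.

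*Sox2* (chromosome 3, 34650005 to 34652460), the marker of incisor stem cells, was at 1.37 and 1.45 RPKM for Ctrl CLH and 1.725 and 1.502 for cKO CLH. It was at 0.710 and 0.551 for Ctrl CLT and 0.131 and 0.209 for cKO CLT, the last pair resting on 9 and 14 reads. Both CLT groups lay below both CLH groups, and the libraries labelled cKO lay below those labelled Ctrl in CLT. It fell by 1.16 from CLH to CLT in cKO on the log2(RPKM + 1) scale (SE 0.11, adjusted p = 1.7e-05, limma), a scale that understates changes of low genes. In Ctrl the same difference was -0.57 (SE 0.21, adjusted p = 0.39, limma). For cKO against Ctrl in CLT it was -0.48 (SE 0.19, adjusted p = 0.15, limma), and the ratio of mean RPKM was 0.269. The estimate moved to -0.41 when Ctrl CLT 1 was left out and to -0.55 when Ctrl CLT 2 was, with 1 Ctrl library kept each time.

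*Sox9* (chromosome 11, 112782210 to 112787757), a SOX factor of cartilage, hair follicles and the cervical loop, was at 28.1 and 29.0 RPKM for Ctrl CLH and 29.4 and 27.5 for cKO CLH. The CLT libraries had 14.2 and 42.4 for Ctrl and 17.7 and 17.6 for cKO. The cKO CLT values lay between the 2 Ctrl CLT values. Their difference was -0.46 (SE 0.55, adjusted p = 0.56, limma), -1.22 without Ctrl CLT 1 and 0.29 without Ctrl CLT 2, so its direction rested on which Ctrl library was kept. *Sox9* fell by 0.66 from CLH to CLT in cKO (SE 0.09, adjusted p = 0.00015, limma), a call lost with all 8 libraries in 1 fit (adjusted p = 0.24). Cartilage genes (6 listed, *Matn1* at 0 in every library) summed to 9.126 to 10.92 RPKM in CLH, 1.974 and 8.344 for Ctrl CLT and 0.7023 and 0.5192 for cKO CLT, and their part in the *Sox9* values was not tested.

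*Sox21* (chromosome 14, 118233234 to 118237030), a SOX factor known from hair cuticle and tooth epithelium, was at 5.30 and 6.27 RPKM for Ctrl CLH and 6.23 and 5.79 for cKO CLH. It was at 27.5 and 13.1 for Ctrl CLT and 11.8 and 12.8 for cKO CLT. All CLT libraries lay above all CLH libraries, and the cKO CLT libraries lay just below Ctrl CLT 2. *Sox21* rose by 0.92 from CLH to CLT in cKO (SE 0.10, adjusted p = 4.1e-05, limma), and the difference in Ctrl was 1.57 (SE 0.39, adjusted p = 0.33). For cKO against Ctrl in CLT it was -0.59 (SE 0.39, adjusted p = 0.32, limma), -0.08 without Ctrl CLT 1 and -1.10 without Ctrl CLT 2. In the GENCODE M21 annotation of mm10, 713 of its exonic bases are also those of *Gm4675* on the opposite strand. The strand setting of the counting is not given in the sources used here, so reads of the 2 genes cannot be told apart.

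Of 16 other SOX genes listed, 9 were tested. Between cKO and Ctrl in CLT none of these passed, 3 were higher and 6 lower, and their median was -0.27, against -0.01 over all genes. The extremes were *Sox10*, a factor of Schwann cells and melanocytes, at 1.83 (adjusted p = 0.087, limma) and *Sox11* at -2.12 (adjusted p = 0.13). In cKO, *Sox10* and *Sox7* rose from CLH to CLT, by 1.94 and 1.15, where 28.9% of all genes passed as higher. *Sox11*, *Sox12*, *Sox18*, *Sox4* and *Sox5* fell, with *Sox11* at -3.15, where 45.1% of all genes passed as lower. The differences of CLT against CLH within Ctrl ran from -1.22 for *Sox11* to 0.39 for *Sox13* and none passed. In CLH none passed between cKO and Ctrl, from -0.19 for *Sox11* to 0.28 for *Sox13*.

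The LGR proteins are receptors for R-spondins, secreted factors that raise WNT signalling by removing the ubiquitin ligases RNF43 and ZNRF3 from the cell surface. *Lgr4* (chromosome 2, 109917647 to 110014257), the most widely expressed of the family, was at 10.8 and 11.2 RPKM for Ctrl CLH and 11.0 and 9.43 for cKO CLH. It was at 14.9 and 14.8 for Ctrl CLT and 19.5 and 17.0 for cKO CLT. The 2 Ctrl CLT libraries hardly differed for this gene, and the cKO CLT libraries lay above them. The difference was 0.28 (SE 0.15, adjusted p = 0.25, limma). It rose by 0.78 from CLH to CLT in cKO (SE 0.11, adjusted p = 0.00024, limma), and the difference in Ctrl was 0.40 (SE 0.13, adjusted p = 0.37).

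*Lgr5* (chromosome 10, 115450314 to 115587780), the stem cell marker of intestine and lower hair follicle, was close to absent from CLH, at 0.0987 and 0.190 RPKM in Ctrl (16 and 24 reads) and 0.233 and 0.158 in cKO (37 and 22 reads). In Ctrl CLT it was at 1.69 RPKM (233 reads) in 1 library and 0 in the other, where up to 3 reads, or 0.0239 RPKM, are allowed by a count of 0. In cKO CLT it was at 7.37 and 6.53. It rose by 2.73 from CLH to CLT in cKO (SE 0.11, adjusted p = 9.6e-08, limma), and the mean RPKM was 35.6 times that of CLH. The difference in CLT between cKO and Ctrl was 2.27 (SE 0.53, adjusted p = 0.083, limma). Leaving out Ctrl CLT 1 gave an estimate of 2.99, and leaving out Ctrl CLT 2 gave 1.56. Each of these fits keeps only 1 Ctrl library, so its spread within Ctrl is unknown and no call is drawn from it. Ctrl CLT 1 held 24.3% of the cKO CLT mean of *Lgr5*, beside 32% for the hair list and 35.1% for the muscle list. The part of other tissue in the *Lgr5* values was not tested.

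*Lgr6* (chromosome 1, 134986353 to 135105276), which marks progenitors of the upper hair follicle and skin, had the opposite pattern. It was at 5.87 and 5.04 RPKM for Ctrl CLH and 7.17 and 6.36 for cKO CLH, and at 9.08 and 6.91 for Ctrl CLT and 2.50 and 2.32 for cKO CLT (254 and 229 reads). The cKO CLT libraries had the lowest values of the 8, below both CLH groups, while the Ctrl CLT libraries lay above the Ctrl CLH ones. *Lgr6* fell by 1.19 from CLH to CLT in cKO (SE 0.11, adjusted p = 1.5e-05, limma), whereas the difference in Ctrl was 0.47 (SE 0.20, adjusted p = 0.42). For cKO against Ctrl in CLT it was -1.39 (SE 0.20, adjusted p = 0.062, limma), a ratio of mean RPKM of 0.301. Dropping Ctrl CLT 1 changed this estimate to -1.22, and dropping Ctrl CLT 2 changed it to -1.56, with 1 Ctrl library kept each time. Ameloblast genes were also lower in cKO CLT, as given above, and their part in the *Lgr6* difference was not tested. In CLH the difference between cKO and Ctrl was 0.27 (SE 0.11, adjusted p = 0.69, limma), with the libraries labelled cKO above those labelled Ctrl.

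Of 17 R-spondin and WNT pathway genes listed, 15 were tested. Between cKO and Ctrl in CLT none passed, 8 were higher and 7 lower, and the median was 0.14. The ligand *Rspo4* had the lowest value at -3.82 (adjusted p = 0.071, limma) and *Lef1*, a transcription factor of the pathway, the highest at 1.95 (adjusted p = 0.083). In cKO, *Lef1*, *Rspo3*, *Znrf3*, *Axin2* and *Rnf43* rose from CLH to CLT, with *Lef1* at 1.96, and *Rspo4*, *Rspo2*, *Notum*, *Rspo1*, *Tcf7*, *Tnfrsf19*, *Ccnd1* and *Nkd1* fell. *Rspo4*, at -4.98 (adjusted p = 1e-09, limma), and *Rspo2*, at -2.77, had the lowest values. Thus 3 ligands for LGR receptors fell and 1 rose, where 45.1% of all genes passed as lower and 28.9% as higher. In Ctrl, CLT against CLH ran from -1.59 for *Notum* to 0.40 for *Rspo3*, and in CLH, cKO against Ctrl ran from -0.28 for *Rspo1* to 0.30 for *Lrp5*. None passed in either.

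*Lrig1* (chromosome 6, 94604529 to 94700145) encodes a membrane protein that dampens ErbB receptor signalling and marks stem cells of the upper hair follicle. It was at 4.82 and 6.05 RPKM for Ctrl CLH and 3.91 and 4.98 for cKO CLH. In Ctrl CLT it was at 13.0 and 2.35, and in cKO CLT at 38.7 and 41.5. The cKO CLT libraries lay far above all others, and 1 Ctrl CLT library lay above and the other below the CLH range. *Lrig1* rose by 2.92 from CLH to CLT in cKO (SE 0.11, adjusted p = 8.5e-08, limma), and the mean RPKM was 9.03 times that of CLH. Between cKO and Ctrl in CLT the difference was 2.58 (SE 0.74, adjusted p = 0.10, limma), 3.62 without Ctrl CLT 1 and 1.55 without Ctrl CLT 2. In Ctrl, CLT against CLH was 0.10 with both libraries, -0.94 without Ctrl CLT 1 and 1.13 without Ctrl CLT 2. Ctrl CLT 1 held 32.5% of the cKO CLT mean and Ctrl CLT 2 5.85%, beside 32% and 0.113% for the hair list, whose part in the *Lrig1* values was not tested. In the annotation, 144 exonic bases are shared with *Slc25a26* on the opposite strand.

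Of 7 other LRIG and receptor kinase genes listed (*Lrig2*, *Lrig3*, *Egfr*, *Erbb2*, *Erbb3*, *Erbb4* and *Met*), 6 were tested. Between cKO and Ctrl in CLT, 5 were higher and *Lrig2* was lower by the estimates. The 5 were higher without overlap, as were 37.2% of all genes tested, and *Lrig2* overlapped. The median was 1.14 and none passed within CLT, while 5 passed with all 8 libraries in 1 fit, where 43.7% of all genes tested passed. *Erbb3* had the highest value at 2.86 (adjusted p = 0.084, limma) and *Lrig2* the lowest at -0.38 (adjusted p = 0.38). In cKO, *Erbb3*, *Egfr*, *Erbb2*, *Met* and *Lrig3* rose from CLH to CLT, with *Erbb3* at 3.71 and *Egfr* at 2.69. *Lrig2* fell by 0.55, and of all genes tested 28.9% passed as higher and 45.1% as lower. The differences of CLT against CLH within Ctrl ran from -0.21 for *Lrig2* to 0.98 for *Erbb3*, and in CLH, cKO against Ctrl ran from -0.07 for *Lrig3* to 0.13 for *Erbb3*, and none passed.

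*Bmi1* (chromosome 2, 18677018 to 18686629), a Polycomb protein that keeps cell cycle inhibitors silent in stem cells, was at 13.5 and 16.5 RPKM for Ctrl CLH and 15.7 and 14.2 for cKO CLH. The CLT libraries had 10.1 and 23.0 for Ctrl and 7.77 and 7.09 for cKO. The cKO CLT libraries had the lowest values, and the 2 Ctrl CLT libraries spanned the CLH range on both sides. *Bmi1* fell by 0.92 from CLH to CLT in cKO (SE 0.10, adjusted p = 4.9e-05, limma), a call lost with all 8 libraries in 1 fit (adjusted p = 0.06). The difference in CLT between cKO and Ctrl was -0.96 (SE 0.42, adjusted p = 0.18, limma), -1.51 without Ctrl CLT 1 and -0.40 without Ctrl CLT 2. Mesenchymal genes (7 listed) summed to 1680 and 2531 RPKM for Ctrl CLT, in the same order as *Bmi1*. For cKO CLT they summed to 1696 and 1862. By the estimates for cKO against Ctrl in CLT, 1 of the 7 was higher and 6 were lower. The higher gene was *Col3a1*, at 526.5 and 456.4 RPKM for Ctrl CLT and 873.7 and 978.6 for cKO CLT. The lowest estimate was that of *Lum*, at 191.2 and 673.3 against 41.44 and 37.97. Leukocyte genes (6 listed) summed to 126.3 and 172.8 for Ctrl CLT and 103.1 and 98.09 for cKO CLT. Endothelial genes (7 listed) summed to 69.19 and 103.7 for Ctrl CLT and 66.57 and 67.5 for cKO CLT. The part of these cell types in the *Bmi1* result was not tested.

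Of 20 other Polycomb genes listed, 19 were tested, and 10 were higher and 9 lower between cKO and Ctrl in CLT, with a median of 0.06 and none past the threshold. *Cbx2* had the highest value at 1.45 (adjusted p = 0.069, limma) and *Phc1* the lowest at -1.15 (adjusted p = 0.1). In cKO, *Cbx2*, *Ezh1*, *Pcgf3* and *Pcgf5* rose from CLH to CLT, with *Cbx2* at 0.89, where 28.9% of all genes passed as higher. *Phc1*, *Pcgf2*, *Cbx6*, *Phc3*, *Ring1*, *Rnf2*, *Phc2*, *Pcgf1* and *Cbx8* fell, with *Phc1* at -1.85, where 45.1% of all genes passed as lower. RING1 and RNF2 are the catalytic partners of BMI1. In Ctrl, CLT against CLH ran from -0.72 for *Ezh2* to 0.39 for *Pcgf5*, and in CLH, cKO against Ctrl ran from -0.30 for *Cbx7* to 0.33 for *Cbx8*, and none passed.

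*Cd34* (chromosome 1, 194938821 to 194961292) encodes a surface sialomucin of hair follicle bulge cells that is also found on vessel endothelium, blood progenitors and fibroblasts. It was at 22.5 and 22.1 RPKM for Ctrl CLH and 20.8 and 22.2 for cKO CLH, and at 26.1 and 25.4 for Ctrl CLT and 44.3 and 43.0 for cKO CLT. The replicates of each group lay close together, also in Ctrl CLT, and the cKO CLT libraries lay above all others. Between cKO and Ctrl in CLT the difference was 0.74 (SE 0.13, adjusted p = 0.068, limma), a ratio of mean RPKM of 1.7. This estimate hardly changed with only 1 Ctrl library kept, to 0.76 when Ctrl CLT 1 was dropped and 0.72 when Ctrl CLT 2 was. *Cd34* rose by 0.99 from CLH to CLT in cKO (SE 0.08, adjusted p = 1.1e-05, limma), and the difference in Ctrl was 0.20 (SE 0.12, adjusted p = 0.51). Endothelial genes (7 listed, all with reads in every library) summed to 69.19 and 103.7 RPKM for Ctrl CLT, 66.57 and 67.5 for cKO CLT and 87.08 to 93.78 in CLH. Single members differed from that sum: *Pecam1* was at 18.48 and 22.35 for Ctrl CLT and 25.41 and 24.19 for cKO CLT, and *Emcn* at 15.6 and 30.48 against 4.541 and 4.216. Their part in the *Cd34* result was not tested. The annotation gives *Cd34* 148 exonic bases in common with *Gm16897* on the opposite strand.

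*Lhx2* (chromosome 2, 38351308 to 38369728), a LIM homeodomain factor of hair follicle precursors, was at or near 0 in CLH, with 5 reads in each Ctrl library and 3 and 0 reads in cKO. In Ctrl CLT it was at 3.69 RPKM (247 reads) in 1 library and 0.0823 (5 reads) in the other. In cKO CLT it was at 12.5 and 11.2 RPKM, from 802 and 698 reads. *Lhx2* RNA was thus present in the cKO CLT libraries and in Ctrl CLT 1 and close to the limit of a count of 0 in the other 5. From CLH to CLT in cKO the fitted rise was 3.65 (SE 0.11, adjusted p = 1.6e-08, limma), a value set in part by the added 1 RPKM. The difference in CLT between cKO and Ctrl was 2.51 (SE 0.76, adjusted p = 0.11, limma), 3.57 without Ctrl CLT 1 and 1.45 without Ctrl CLT 2. Ctrl CLT 1 held 31.2% of the cKO CLT mean and Ctrl CLT 2 0.694%. The hair list was at 32% and 0.113%, the oral and cornified list at 33.9% and 1.01% and the melanocyte list at 32.4% and 2.49%. The part of other tissue was not tested.

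Of 13 other LIM homeobox and LIM cofactor genes listed, 7 were tested, of which 2 were higher and 5 lower between cKO and Ctrl in CLT, with a median of -0.44 and none past the threshold. *Lmo4* had the highest value at 0.77 (adjusted p = 0.077, limma) and *Lhx8*, a factor of dental mesenchyme, the lowest at -3.19 (adjusted p = 0.081). *Lmo4* rose by 0.67 from CLH to CLT in cKO, where 28.9% of all genes passed as higher. *Lhx8*, *Lhx6*, *Lmo1*, *Ldb2* and *Lmo2* fell, with *Lhx8* at -4.05, where 45.1% of all genes passed as lower. The differences of CLT against CLH within Ctrl ran from -0.80 for *Lhx8* to 0.00 for *Lmo2*, and in CLH, cKO against Ctrl ran from -0.13 for *Ldb2* to 0.16 for *Lhx6*, and none passed.

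The wider lists of both stem cell systems are given for comparison. Of 16 other hair follicle stem cell genes listed, 14 were tested, and 9 were higher and 5 lower between cKO and Ctrl in CLT, with a median of 0.46 and none past the threshold. *Hopx* had the highest value at 2.82 (adjusted p = 0.12, limma) and *Dkk3* the lowest at -1.06 (adjusted p = 0.072). In cKO, *Krt15*, *Hopx*, *Foxc1*, *Slc1a3*, *Prdm1*, *Gata6* and *Tbx1* rose from CLH to CLT, with the bulge keratin *Krt15* at 4.67. *Tcf7l1*, *Dkk3*, *Tcf7l2* and *Itga6* fell, with *Tcf7l1* at -1.16. Of all genes tested, 28.9% passed as higher and 45.1% as lower there. *Krt15* had 1.92 in Ctrl (adjusted p = 0.49, limma), where *Tcf7l1* was lowest at -0.70. In CLH, cKO against Ctrl ran from -0.32 for *Slc1a3* to 0.26 for *Col17a1* and none passed.

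Of 23 genes of the incisor stem cell niche, all tested, 16 were lower and 7 higher between cKO and Ctrl in CLT, with a median of -0.41. The transcription factor gene *Isl1* and the binding protein gene *Igfbp5* fell, with differences of -3.82 and -1.68 (adjusted p = 0.021 and 0.047, limma). Of all genes tested, 1.75% passed in this comparison, and its number of calls changed strongly with the processing, as given below. *Notch1* had the highest value at 1.72 (adjusted p = 0.072). From CLH to CLT in cKO 19 fell, among them *Shh*, *Isl1*, *Sfrp5*, *Fgf3*, *Ptch1*, *Gli1*, *Spock1*, *Igfbp5*, *Abcg2*, *Etv5*, *Fgf9*, *Acta2*, *Etv4*, *Fgf10*, *Spry4*, *Fgfr2*, *Wwtr1* and *Spry2*. *Notch1*, *Fst* and *Tbx1* rose, where 45.1% of all genes passed as lower and 28.9% as higher. *Shh* was at -3.62 and *Isl1* at -3.61 there, and *Notch1* had the highest value at 1.92. In Ctrl, CLT against CLH ran from -2.03 for *Sfrp5* to 0.79 for *Fst*, and in CLH, cKO against Ctrl ran from -0.40 for *Fgf10* to 0.18 for *Ptch1*, and none passed.

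**Figure D3:**
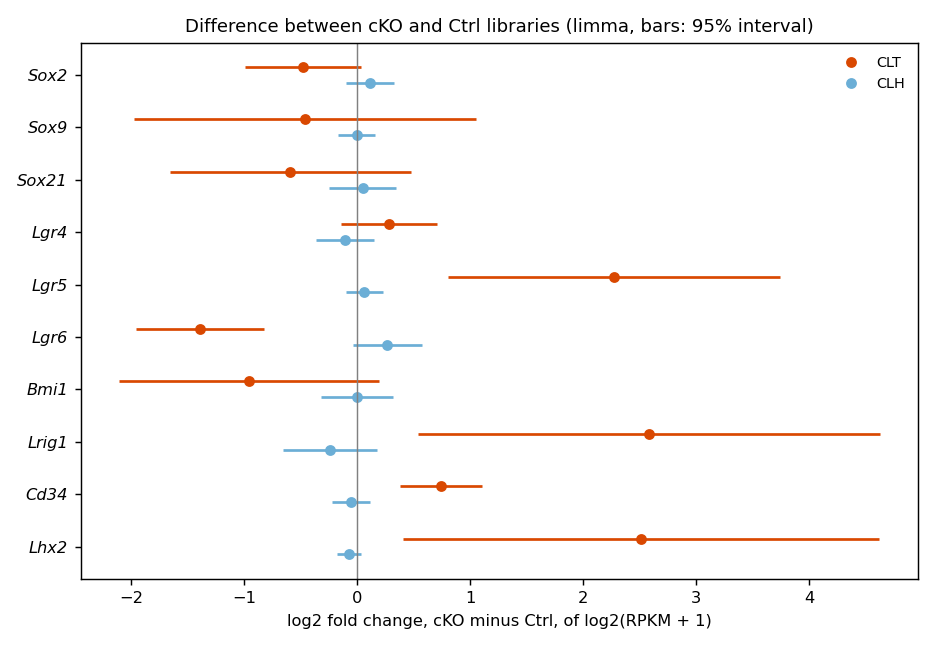
Difference between libraries labelled cKO and Ctrl (log2 fold change of RPKM + 1, horizontal axis) for the 10 markers in CLT (orange) and CLH (blue); points are limma estimates and bars 95% intervals. In CLH all estimates lie within 0.27 of 0, and in CLT they reach from -1.39 for *Lgr6* to 2.58 for *Lrig1*, with wide intervals.

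Set together for cKO against Ctrl in CLT, 4 markers were higher (*Lgr5*, *Lrig1*, *Cd34* and *Lhx2*) and *Lgr6* lower at an unadjusted p under 0.05, which 36.2% of all genes tested also reached. With all 8 libraries in 1 fit, these 5 and *Sox2* passed the adjusted threshold (adjusted p = 0.0025 for *Cd34* to 0.033 for *Sox2*, limma), where 43.7% of all genes passed. Without Ctrl CLT 1, 8 of the 10 passed, and without Ctrl CLT 2 8 passed too, where 69.5% and 52.1% of all genes passed. In those fits the remaining Ctrl CLT library has no replicate and is assumed to vary like the cKO CLT libraries. The median of the 10 was -0.09, against -0.01 over all genes.

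In CLH, 2 markers (*Sox2* and *Lgr6*) were higher in both libraries labelled cKO and *Lhx2* was lower in both, where 38.7% of all genes tested did not overlap in either direction. The *Lhx2* values there rested on 5 reads in each Ctrl library and 3 and 0 reads in cKO. The limma fit called 0 of the 10 and 0% of all genes at an adjusted p of 0.05. At an unadjusted p under 0.05 it reached 0 of the 10 and 7.26% of all genes, and the voom fit on the recovered reads also called 0 of the 10. The 95% interval of the difference was widest for *Lrig1*, from -0.66 to 0.17, and for *Cd34* it ran from -0.22 to 0.12. The median of the 10 was -0.0036, against -0.0053 over all genes.

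**Figure D4:**
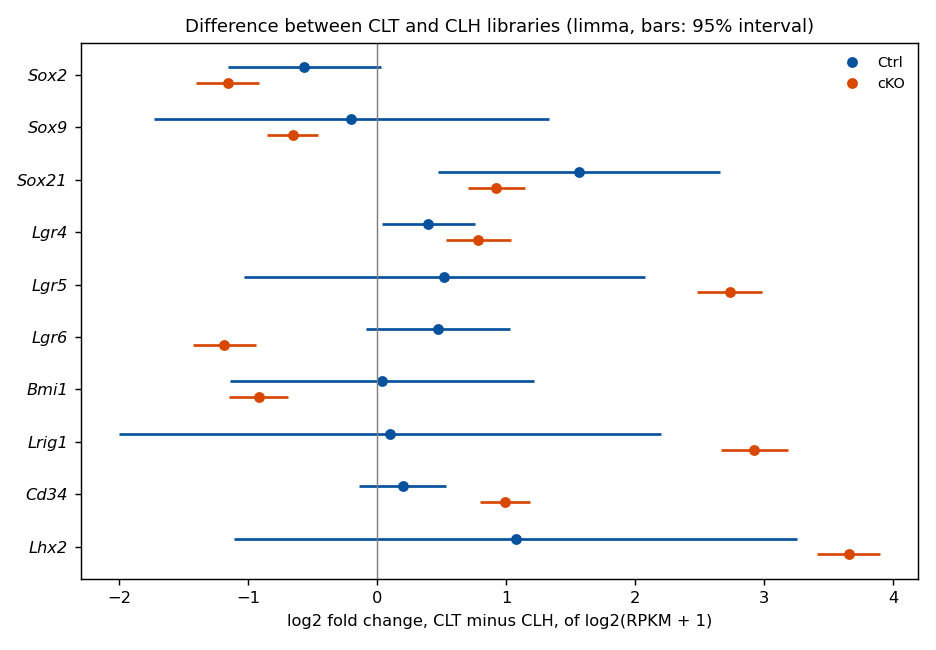
Difference between CLT and CLH libraries (log2 fold change of RPKM + 1, horizontal axis) for the 10 markers in Ctrl (blue) and cKO (orange); points are limma estimates and bars 95% intervals. In cKO all 10 intervals exclude 0, and in Ctrl only those of *Sox21* and *Lgr4* do.

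Between CLT and CLH in Ctrl, 5 markers (*Sox21*, *Lgr4*, *Lgr6*, *Cd34* and *Lhx2*) were higher in both CLT libraries and *Sox2* was lower in both, where 15.2% and 36.8% of all genes did the same. *Lhx2* had 5 reads in Ctrl CLT 2 and in each Ctrl CLH library, so only Ctrl CLT 1 was higher by its reads. None passed the adjusted threshold (0.00707% of all genes did). *Sox21* passed with all 8 libraries in 1 fit (adjusted p = 0.044, limma, where 5.92% of all genes passed). Without Ctrl CLT 2, 8 of the 10 passed, as did 53.3% of all genes, and without Ctrl CLT 1 none did, where 3.31% of all genes passed. The median of the 10 was 0.30, against -0.13 over all genes, which median-of-ratios scaling moved to 0.01. In cKO all 10 passed, 6 higher and 4 lower, as did 74.0% of all genes (28.9% higher and 45.1% lower). The median of the 10 was 0.85, against -0.18 over all genes, which median-of-ratios scaling moved to 0.02. That scaling changed the split of all calls from 4084 higher and 6384 lower to 5270 and 4884, and all 10 markers kept their direction under it. With all 8 libraries in 1 fit, 8 of the 10 passed, as did 54.1% of all genes.

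The cKO effect was also compared between CLT and CLH in 1 fit over the 8 libraries (the effect in CLT minus that in CLH). *Lgr6* at -1.66 (SE 0.23, adjusted p = 0.010, limma) and *Cd34* at 0.79 (SE 0.12, adjusted p = 0.013) passed, 2 of the 10, where 17.6% of all genes tested passed. *Lgr6* was lower in cKO CLT and slightly higher in cKO CLH, and *Cd34* was higher in cKO CLT and close to Ctrl in cKO CLH, by the estimates given above. *Lgr5* at 2.21 (adjusted p = 0.053, limma), *Lrig1* at 2.82 (0.067), *Sox2* at -0.59 (0.078) and *Lhx2* at 2.58 (0.084) did not pass. *Lgr4*, *Bmi1*, *Sox21* and *Sox9* had adjusted p of 0.14 to 0.62. Without Ctrl CLT 1, 8 markers passed, where 63.1% of all genes did, and without Ctrl CLT 2, 7 passed, where 46.6% of all genes did, *Lgr6* and *Cd34* among them in both. Leaving out any 1 of the other 6 libraries ended both calls, with estimates of -1.75 to -1.56 for *Lgr6* (adjusted p = 0.057 to 0.075, limma) and 0.75 to 0.84 for *Cd34* (adjusted p = 0.067 to 0.089).

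The same test, which 17.6% of all genes tested passed, was also read in the pathway lists. It called *Axin2*, *Rspo3*, *Lef1* and *Znrf3* higher and *Rspo4* lower among R-spondin and WNT genes. It called *Egfr*, *Erbb2*, *Lrig3* and *Met* higher among the receptor kinase genes, *Cbx2*, *Cbx7* and *Ezh1* higher among Polycomb genes and *Sox7* higher among SOX genes. *Foxc1*, *Slc1a3* and *Prdm1* were higher and *Dkk3* and *Itga6* lower among hair follicle genes, and *Lmo4* was higher and *Lhx6* and *Lhx8* lower among LIM genes. Of the niche genes, *Notch1* was higher and *Isl1*, *Igfbp5*, *Spock1* and *Gli1* were lower. *Lef1*, *Znrf3*, *Cbx7* and *Lhx8* passed closely, with adjusted p of 0.043 to 0.05 (limma). The number of calls in this test changed with the libraries kept, as given below. Without passing, *Krt15* had the highest value over these lists at 2.75 (adjusted p = 0.16, limma). In the other lists the lowest and highest were *Rspo4* at -4.07 and *Lef1* at 1.94, *Lrig2* at -0.34 and *Erbb3* at 2.73, *Phc1* at -1.17 and *Cbx2* at 1.40, *Sox11* at -1.92 and *Sox10* at 1.83, and *Lhx8* at -3.25 and *Lmo4* at 0.80.

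The genes whose pattern over the 8 libraries was most like each marker were read from Pearson's r of log2(RPKM + 1) over all genes tested, as a description. The points share the 4 groups and each library's tissue composition, so high values arise easily. For *Lhx2* they were *Emp2* and *Flg2*, for *Lgr5* *2310014L17Rik* and *Phactr4*, and for *Lrig1* *Plekhn1* and *Lmbr1l*. *Flg2* encodes a filaggrin protein of cornified epidermis. The nearest genes to *Cd34* were *Nudt13* and *Map3k5*, to *Lgr4* *Arl8b* and *Ypel5*, to *Lgr6* *Crtac1* and *Spsb1*, and to *Sox2* *Agrn* and *Zfp428*. The genes nearest to *Sox9* were *A830080D01Rik* and *Maml2*, to *Sox21* *Adcy7* and *6530402F18Rik*, and to *Bmi1* *Msr1* and *Gnpda2*. Their r ran from 0.9889 to 0.9996. Among the markers themselves, *Lgr5*, *Lhx2* and *Lrig1* had r of 0.97 to 0.99 with each other. *Cd34* had r of 0.91 to 0.95 with each of them, and *Lgr4* had 0.89 with *Cd34*. *Sox9* and *Bmi1*, both highest in Ctrl CLT 2, had 0.91.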

How the data were processed

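RNA from dissected CLH and CLT tissues of *Med1* cKO and Ctrl mice was sequenced by the study, with 2 libraries per group. According to the study's methods, TruSeq libraries were read as paired ends, aligned to mm10 with STAR 2.6.0b-1 and counted with featureCounts 1.6.3. The sample records also name Trim Galore 0.4.3.1. The authors deposited RPKM values per gene and library with a gene length. The annotation, the strand setting and the total behind the RPKM are not given in the sources used here. RPKM times length gave whole reads for 100.0% of values (within 0.01 read), so the reads behind each value and totals of 26591613 to 34420181 reads per library were recovered. Floors of 3 reads cover counting error only. Of the gene names, 26 stood on more than 1 row (69 rows), none of them listed here.

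Groups were taken from the sample labels. log2(RPKM + 1) of 14148 genes with at least 1 RPKM in at least 2 libraries was fitted with limma 3.58.1 (variance trend, R 4.3.3) within the 4 libraries of each comparison, with Benjamini-Hochberg adjustment over all of them and a threshold of 0.05. The interaction used 8 libraries. With 2 libraries a group, the smallest p that exact permutation allows is 0.333. The study's text names 2 litters for these libraries, but the labels do not tie a library to a litter, and p-values measure only the spread between these samples. The scripts were tested on simulated data.

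The named genes were the 10 markers, *Med1*, for each list the genes past the threshold and the highest and lowest estimates, the summed RPKM of each cell type list, and the 2 genes most like each marker. *Mlana*, *Matn1*, *Krt14*, *Krt5*, *Krt10*, *Krt13*, *Krt4*, *Krt76*, *Pecam1*, *Emcn*, *Col3a1*, *Lum*, *Col1a1* and *Dspp* were named after their values were seen. The markers and lists were chosen with earlier results of these data known. Alternatives were a pseudocount of 0.1, median-of-ratios scaling, no filter, all 8 libraries in 1 fit, a replicate block, voom on the recovered reads, each library left out, and a crossed replicate block added after seeing the data. Summed RPKM of the lists not given in the report were 35.81 and 31.69 for Schwann cells and 2167 and 2533 for odontoblasts and bone in Ctrl CLT. In cKO CLT they were 95.16 and 97.46 for Schwann cells and 377.5 and 472.4 for odontoblasts and bone. *Col1a1* alone was at 376.4 and 471.5 RPKM there. *Dspp* was at 543.1 and 644.2 for Ctrl CLT and 0.1449 and 0.1738 for cKO CLT. All 6 genes of the odontoblast and bone list were lower in cKO CLT. Of these, 4 passed the adjusted threshold, where 1.75% of all genes tested passed. Promoters were from RefSeq (GRCm38.p6), and overlaps of genes from GENCODE M21. The study's other assays were not analysed here. Results of a single listed gene are not reported here.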

Additional observations from a re-analysis of the deposited data

Results flagged for a closer look

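The effect of the cKO label differed between CLT and CLH for 2 of the 10 markers, by the interaction term of limma over 8 libraries, a term that 17.6% of all genes tested also passed. For *Lgr6* the difference of the effects was -1.66 (SE 0.23, adjusted p = 0.010). For *Cd34* it was 0.79 (SE 0.12, adjusted p = 0.013). With any 1 library left out, the estimates were -1.83 to -1.48 for *Lgr6* and 0.75 to 0.84 for *Cd34*. Leaving out any 1 of the 6 libraries outside Ctrl CLT ended both calls. Fits without 1 Ctrl CLT library leave that group without a replicate, so they do not show that the calls are robust. Groups held 2 libraries each, too few to test single libraries as outliers.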

How the results depend on the processing

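Calls in the comparisons that use Ctrl CLT depended on the spread of its 2 libraries. Of 248 genes called for cKO against Ctrl in CLT, the count became 3 with no filter on low values, 6183 with all 8 libraries in 1 fit (6 markers), 18 with voom on the recovered reads and 11 to 9838 without 1 library (0 to 8 markers). For CLT against CLH in Ctrl, 1 gene was called, 2 with a pseudocount of 0.1, 0 with no filter, 837 with all 8 libraries in 1 fit (1 marker), 0 with voom and 0 to 7537 without 1 library (0 to 8 markers). In cKO it was 8402 to 9373 genes and 10 markers without 1 library, against 10468. For the interaction it was 198 to 8932 genes and 0 to 8 markers, against 2494 and 2. For cKO against Ctrl in CLH, 0 genes and 0 markers were called in each of these fits.

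The replicate numbers were not shown to pair the samples: the correlation of replicate differences between Ctrl and cKO was -0.192 in CLT and 0.0656 in CLH, and between CLH and CLT it was 0.195 in Ctrl and 0.307 in cKO, each from 2 pairs only. With the replicate block, 1744 genes and 4 markers (*Lgr5*, *Lgr6*, *Lrig1* and *Lhx2*) were called for cKO against Ctrl in CLT, 5 genes for CLT against CLH in Ctrl and 1448 genes for the interaction. With the crossed pairing, chosen after seeing the data, 9 genes and 0 markers were called in CLT.

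Directions of small differences reversed: *Bmi1* in CLH was -0.0014 and became 0.0023 with median-of-ratios scaling and 0.0089 with voom, and *Lgr5* for CLT against CLH in Ctrl was 0.52 and became -0.54 with voom. Without 1 library, the range was -0.14 to 0.13 for *Bmi1*, -0.0537 to 0.15 for *Sox21* and -0.0534 to 0.0419 for *Sox9* in CLH. It was -1.22 to 0.29 for *Sox9* in CLT and -1.21 to 0.30 in the interaction. For CLT against CLH in Ctrl it was -0.52 to 0.59 for *Bmi1*, -0.94 to 1.13 for *Lrig1*, -0.19 to 1.23 for *Lgr5* and -0.96 to 0.56 for *Sox9*. The difference of *Med1* ranged from 0.0503 to 0.79 in CLT and from -0.33 to -0.11 in CLH. The cause of these changes was not tested. Genes with few reads, such as *Sox2* in cKO CLT and *Lhx2* in CLH, limit what the depth can show.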
